A study of Mus musculus with 15 samples.

Results

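The cytosolic heat shock genes described here are 10 genes of the mouse podocyte line MPC5, taken by name from a table of 25012 genes. They are the small heat shock protein gene Hspb1, the HSP70 genes Hspa1a, Hspa1b and Hspa8, the HSP90 genes Hsp90aa1 and Hsp90ab1, the co-chaperone genes Hsph1, Dnajb1 and Bag3, and Hsf1, whose product is the transcription factor of the heat shock response. All 10 passed the filter of a mean of at least 1 FPKM (fragments scaled to transcript length and library size) over the 3 RNA libraries, as did 11591 of the 25012 genes.

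The study compared 3 conditions in MPC5 cells, an immortalised clone of mouse podocytes, the epithelial cells that wrap the capillaries of the kidney filter. Cells of the first condition were infected with a virus that encodes an shRNA to METTL3, then kept in medium with glucose (25 µmol/L as labelled, a unit that no value here checks) for 72 hours. Cells of the second were given the same virus without the added glucose, and control cells, labelled as wild type, stayed in standard medium. No label names a control virus, so the shRNA and the virus itself cannot be told apart. Each condition had 5 samples: 2 of input RNA, 2 of RNA pulled down with an antibody against N6-methyladenosine (m6A), and 1 of RNA with neither word in its label. RNA levels are from 1 library in each condition and the m6A peaks from 1 list in each, so the RNA differences have no replicate check and no p-value.

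Heat shock proteins are chaperones: they bind unfolded proteins and help them fold, hold them in solution or pass them on for degradation. When unfolded protein builds up, HSF1 is released from chaperones, forms trimers and binds heat shock elements, inverted repeats of the bases GAA, in front of the genes of its targets. Some members, such as Hspa8 and Hsp90ab1, are made in nearly every cell at all times, whereas Hspa1a and Hspa1b are nearly silent until stress. Podocytes depend on a dense actin skeleton, and HSPB1, known as HSP25 in the mouse, binds actin and has been studied in podocytes for that reason. The mark m6A is written on messenger RNA by a complex that contains METTL3 and is found mostly near stop codons and in 3' UTRs. In heat-stressed cells the mark has been found in the 5' UTR of HSP70 messages, where it aids translation that does not depend on the cap. The antibody against m6A also binds m6Am, a related mark beside the cap of many messages.

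The upstream sequences of Hspb1, Dnajb1, Hspa1a, Hspa1b and Hsph1 are shown because these members had the lowest RNA relative to control, as described further on, and because HSF1 acts through such sequence. They are the 250 bases before an annotated transcript start in RefSeq on mouse build GRCm38.p6, written 5' to 3' on the strand of the gene. For Hsph1 the start used lies inside the annotated gene, which reaches 149636376 as deposited and 149636498 in RefSeq. Part of its sequence therefore lies within the gene. Capitals mark GAANNTTC or TTCNNGAA, the paired arrangements of the GAA repeat, searched on both strands. Hspb1 and Dnajb1 lie on the plus strand, and their sequences cover chr5:135887669-135887918 and chr8:83607925-83608174. The other 3 genes lie on the minus strand, and their sequences cover chr17:34972157-34972406 for Hspa1a, chr17:34959239-34959488 for Hspa1b and chr5:149636337-149636586 for Hsph1.
Hspb1: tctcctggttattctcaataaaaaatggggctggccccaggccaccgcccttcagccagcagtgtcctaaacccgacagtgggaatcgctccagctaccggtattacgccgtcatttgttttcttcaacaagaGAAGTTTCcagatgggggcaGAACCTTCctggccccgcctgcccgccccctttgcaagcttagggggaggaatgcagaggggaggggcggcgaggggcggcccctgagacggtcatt
Dnajb1: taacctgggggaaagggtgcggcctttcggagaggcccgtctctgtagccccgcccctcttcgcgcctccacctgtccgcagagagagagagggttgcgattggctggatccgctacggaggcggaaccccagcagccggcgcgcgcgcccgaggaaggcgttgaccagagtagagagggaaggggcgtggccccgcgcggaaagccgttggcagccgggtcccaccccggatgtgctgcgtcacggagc
Hspa1a: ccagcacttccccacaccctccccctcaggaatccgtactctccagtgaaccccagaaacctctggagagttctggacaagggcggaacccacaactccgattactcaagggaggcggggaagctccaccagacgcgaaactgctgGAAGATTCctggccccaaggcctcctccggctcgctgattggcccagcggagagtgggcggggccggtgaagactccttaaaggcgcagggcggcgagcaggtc
Hspa1b: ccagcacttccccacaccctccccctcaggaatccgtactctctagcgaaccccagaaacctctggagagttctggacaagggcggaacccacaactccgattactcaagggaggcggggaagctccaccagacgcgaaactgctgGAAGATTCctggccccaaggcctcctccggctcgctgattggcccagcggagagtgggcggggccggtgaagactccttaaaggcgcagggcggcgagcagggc
Hsph1: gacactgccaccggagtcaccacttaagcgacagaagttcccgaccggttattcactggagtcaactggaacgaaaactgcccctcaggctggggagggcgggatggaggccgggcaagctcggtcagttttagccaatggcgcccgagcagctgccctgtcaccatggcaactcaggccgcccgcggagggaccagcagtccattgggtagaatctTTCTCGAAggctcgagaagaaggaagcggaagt

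Hspb1 held GAANNTTC in 2 places, with first bases 117 and 97 bases before the gene start. Hspa1a and Hspa1b each held it at 104 bases before the start. Their upstream sequences differed at only 3 of the 250 positions, by the substitutions C44T, T47C and T249G (the base of Hspa1a first, counted from the 5' end), and were 98.8% identical. Hsph1 held TTCNNGAA at 33 bases before the start used, a place inside the annotated gene. Further matches lay in the first 50 bases after the start, at base 43 for Bag3 and at base 37 for Hsph1. At the latter TTCNNGAA was followed by NNTTC, a longer run that 0.603% of promoters held. Counted from another annotated start of Hsph1, its TTCNNGAA matches lay 54 bases before the start and at base 16. Of the 6 members in the promoter table, 5 held at least 1 of both short arrangements within 250 bases before to 50 bases after the start, the exception being Dnajb1, whose sequence above has no capitals. The same arrangements stood in 15.1% of all 32851 promoters of the table and, by gene, in 17.0% of 27025 genes. A match of letters is a description, and no binding was measured here. Hspa8, Hsp90aa1, Hsp90ab1 and Hsf1 were not in that table.

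The 3 libraries held 52807701 counts (glucose), 53655982 counts (labelled sh-METTL3) and 54282720 counts (control). Mettl3, the target of the shRNA, stood at 2.49, 2.42 and 2.34 FPKM in the glucose, sh-METTL3 and control libraries. Its share of counts in the library labelled sh-METTL3 over control was 1.05 (exact 95% binomial interval 0.963 to 1.15), so its level did not bear the label out and the library is named by its label throughout. Summed FPKM of 9 podocyte markers were 217, 204 and 96.9 in the glucose, sh-METTL3 and control libraries, with 0 of the 9 at 0 counts, Nphs1 detected in all 3 and Wt1 under 1 FPKM in all 3; those of 7 tubular markers were 87.9, 172 and 59.0. Leukocyte, endothelial and mesangial markers summed to at most 11.1, 2.71 and 5.09 FPKM in any library. The makeup of the RNA moved with the conditions: cytosolic ribosomal protein genes took 3.76%, 3.05% and 6.80% of counts and the ribosomal RNA entries named CT010467 took 0.0946%, 0.0857% and 2.31%, each in the order glucose, sh-METTL3, control. Short genes stood lower in the library labelled sh-METTL3 than in control, with a median log2 ratio of -0.70 in the shortest of 10 equal length classes and 0.45 in the longest, and highly expressed genes (at least 100 FPKM on average) had a median of -0.86. The part of these shifts in the values of the heat shock genes was not tested. Log2 ratios centred on genes of like length, a choice made after seeing the data, are given below for Hspb1, Hsp90ab1, Hsph1, Dnajb1 and Hsf1. That centring also moved others. For sh-METTL3 over control, Bag3 went from -0.49 to -0.34 and Hspa1b from -4.61 to -4.46. For glucose over control, Hspa8 went from -1.16 to -1.18 and Hsp90aa1 from -1.847 to -1.865.

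All 10 heat shock genes were lower in the glucose library and in the library labelled sh-METTL3 than in control. The inducible HSP70 genes Hspa1a and Hspa1b stood lowest, at 0.03 to 0.07 of their control share, followed by Hspb1, Dnajb1 and Hsph1 at about 0.19 to 0.29 of it, and then by Hspa8 and the HSP90 genes at about 0.31 to 0.57. Bag3 and Hsf1 were nearest to the median gene. Between glucose and sh-METTL3 all 10 were within 2-fold on the log2 scale of FPKM + 1. By share of counts, Hspa1a was 2.06 times and Hspa1b 2.01 times as high with glucose, Hspb1 was 1.53 times as high and Hsp90aa1 was at 0.671 of its sh-METTL3 share.

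Log2 ratios below are of FPKM + 1 and are relative to the median of the tested genes, whose own ratio was 0.10 for the library labelled sh-METTL3 over control, 0.16 for glucose over control and 0.06 for glucose over sh-METTL3. A gene was counted as higher or lower from an absolute value of 1, that is 2-fold. In the library labelled sh-METTL3 against control, 7 of the 10 were at least 2-fold lower, against 9.86% of all tested genes, and 0 were higher, against 9.15%. The median of the 10 was -1.74. In the glucose library against control 8 were lower, against 5.7% of genes, and 0 higher, against 5.32%, with a median of -1.86. Both comparisons share the control library, so their likeness is no separate observation. In the glucose library against the library labelled sh-METTL3, 0 of the 10 were lower, against 2.18% of genes, and 0 higher, against 2.48%, with a median of 0.22 and 7 of 10 above 0. In bulk RNA, fewer cells of a kind and less RNA per cell cannot be told apart. Among genes of at least 100 FPKM, a class with 309 genes, 41.8% were lower in the library labelled sh-METTL3 than in control and 25.2% in the glucose library, so that for Hspb1, Hspa8 and the HSP90 genes, which belong to it, the background of lower values was wider than among all genes.

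The split of all called genes depended on the centring. Without subtraction of the median, 58.8% of called genes were higher in the library labelled sh-METTL3 than in control, where it was 48.1% with it, and 69.2% in the glucose library, where it was 48.3% with it. Size factors gave 59.5% for glucose over control, and centring within 10 length classes, chosen after seeing the data, gave 58.5% and 60.4% for the libraries labelled sh-METTL3 and glucose over control. All 10 members stayed below 0 against control under every scaling run. With centring by length, the members at least 2-fold lower numbered 8 for sh-METTL3 over control and 7 for glucose over control.

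**Figure D1:**
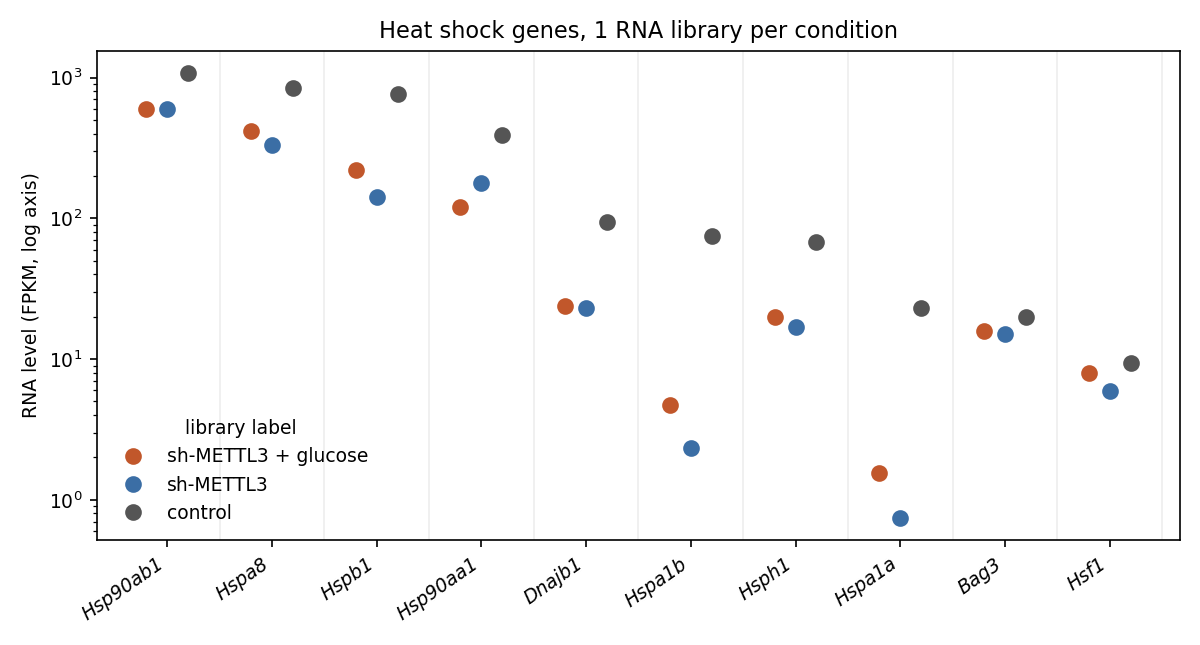
RNA level of each heat shock gene in FPKM on a log axis, ordered by the control level, with 1 point per library: sh-METTL3 with glucose, sh-METTL3 and control from left to right within each gene. The control point is the highest for every gene, from Hsp90ab1 at 1079 FPKM to Hsf1 at 9.34 FPKM, and the gap is widest for Hspa1b and Hspa1a.

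Hspa1b, one of the near-identical pair of genes for the stress-inducible HSP70, stood at 4.70 FPKM in the glucose library, 2.32 FPKM in the library labelled sh-METTL3 and 74.5 FPKM in control, from 1072, 543 and 17329 counts. It was abundant only in the control. The ratio of its count shares was 0.0317 for sh-METTL3 over control (exact 95% binomial interval 0.0290 to 0.0345), 0.0636 for glucose over control (0.0597 to 0.0676) and 2.01 for glucose over sh-METTL3 (1.81 to 2.23). These intervals, like all of those below, cover counting error only and not the spread between cultures. Its log2 ratio of -4.61 for sh-METTL3 over control was at or below that of all but 0.0518% of tested genes.

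Hspa1a, the other inducible HSP70 gene, stood at 1.56, 0.748 and 23.1 FPKM in the glucose, sh-METTL3 and control libraries, from 377, 186 and 5674 counts. The order of the libraries was that of Hspa1b. Its count share was 0.0332 of control in the library labelled sh-METTL3 (0.0285 to 0.0384) and 0.0683 of control in the glucose library (0.0614 to 0.0758), with 2.06 for glucose over sh-METTL3 (1.72 to 2.47). On the log2 scale with 1 FPKM added, which compresses low levels, the differences were -3.88, -3.39 and 0.50. The pair lies on chromosome 17 at 34969190 to 34972156 (Hspa1a) and 34956436 to 34959238 (Hspa1b), both on the minus strand. Because reads of so similar a pair can be assigned to either copy, their counts were also summed, which gave 1449, 729 and 23003 counts and ratios of 0.0321, 0.0648 and 2.02. Per length, Hspa1b exceeded Hspa1a by 3.01, 3.11 and 3.23 times in the glucose, sh-METTL3 and control libraries, so the FPKM ratio of the copies stayed close in all 3.

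Hspa8 encodes HSC70, the constitutive HSP70 of the cytosol, which also strips clathrin from vesicles and carries proteins to the lysosome. It stood at 418 FPKM in the glucose library, 331 FPKM in the library labelled sh-METTL3 and 841 FPKM in control. The control was again the highest, by far less than for the inducible pair. Its count share was 0.401 of control in the library labelled sh-METTL3 (0.398 to 0.403), 0.501 of control with glucose (0.497 to 0.504) and 1.25 for glucose over sh-METTL3 (1.24 to 1.26). Per length, Hspa8 exceeded Hspa1b by 88.9 times in the glucose library, by 143 times in the library labelled sh-METTL3 and by 11.3 times in control. Its log2 ratios of -1.44 for sh-METTL3 over control and -1.16 for glucose over control were -0.64 and -0.39 under quantile normalization, which was chosen after seeing the data and ended both calls.

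Hspb1, the small heat shock protein gene on chromosome 5 (135887919 to 135889563, plus strand), was among the most abundant members, at 219 FPKM in the glucose library, 142 FPKM in the library labelled sh-METTL3 and 768 FPKM in control. The counts were 18381, 12239 and 65701. The level was highest in control, where the gene ranked at place 34 of the table by FPKM, and the glucose library lay above the library labelled sh-METTL3. The ratios of count shares were 0.189 for sh-METTL3 over control (0.185 to 0.192), 0.288 for glucose over control (0.283 to 0.292) and 1.53 for glucose over sh-METTL3 (1.49 to 1.56). The table also holds Hsp25-ps1, a processed pseudogene of this gene on chromosome 13, with 1746, 1131 and 6628 counts in the same libraries, that is 9.499%, 9.24% and 10.1% of the counts of Hspb1. Reads may be shared between them, and summing both gave 0.187, 0.286 and 1.53. Hspb1 is short, in length class 2 of 10, and its log2 ratios of -2.53 for sh-METTL3 over control and -1.96 for glucose over control were -2.06 and -1.59 relative to genes of like length.

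The HSP90 genes encode chaperones of kinases and steroid receptors, and HSP90 holds HSF1 inactive in unstressed cells. Hsp90aa1, the stress-inducible form, stood at 120.0 FPKM in the glucose library, 177 FPKM in the library labelled sh-METTL3 and 389.5 FPKM in control. It was the member for which the glucose library lay furthest below the library labelled sh-METTL3, with a ratio of count shares of 0.671 (0.663 to 0.680). Against control its share was 0.462 in the library labelled sh-METTL3 (0.458 to 0.467) and 0.310 in the glucose library (0.307 to 0.314). A log2 ratio of -1.23 for sh-METTL3 over control became -0.34 under quantile normalization, inside the 2-fold line.

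Hsp90ab1, the constitutive form, stood at 597 FPKM in the glucose library, 599.8 FPKM in the library labelled sh-METTL3 and 1079 FPKM in control. The glucose library and the library labelled sh-METTL3 were level with each other and below control. Its count share was 0.565 of control in the library labelled sh-METTL3 (0.561 to 0.569) and 0.557 of control in the glucose library (0.554 to 0.561), and 0.986 for glucose over sh-METTL3 (0.979 to 0.994). The log2 ratios against control, -0.95 and -1.01, lay on either side of the 2-fold line, and both were inside it under quantile normalization, at -0.33 and -0.43. Centring by length put both inside it too, at -0.80 and -0.95. Per length Hsp90ab1 exceeded Hsp90aa1 by 4.98 times with glucose, 3.39 times in the library labelled sh-METTL3 and 2.77 times in control.

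Dnajb1 encodes the HSP40 co-chaperone that delivers clients to HSP70 and starts its ATP cycle. It stood at 24.0 FPKM in the glucose library, 23.2 FPKM in the library labelled sh-METTL3 and 94.4 FPKM in control. The ratio of count shares was 0.2495 for sh-METTL3 over control (0.243 to 0.257), 0.256 for glucose over control (0.249 to 0.263) and 1.03 for glucose over sh-METTL3, whose interval of 0.991 to 1.06 spans 1.

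Hsph1 encodes HSP110, which exchanges the nucleotide of HSP70 and takes part in pulling apart aggregates. It stood at 19.8 FPKM in the glucose library, 16.9 FPKM in the library labelled sh-METTL3 and 67.9 FPKM in control. Its count share was 0.254 of control in the library labelled sh-METTL3 (0.248 to 0.259), 0.295 of control with glucose (0.289 to 0.301), and 1.16 for glucose over sh-METTL3 (1.13 to 1.19). Among the 10 members Hsph1 and Dnajb1 were thus close to each other, with log2 ratios of -2.04 and -2.08 for sh-METTL3 over control. Relative to genes of like length they were further apart, at -2.38 for Hsph1, in length class 9, and -2.07 for Dnajb1, in class 5.

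Bag3 encodes a second exchange factor of HSP70 that directs clients to autophagy and binds small heat shock proteins. It stood at 15.8 FPKM in the glucose library, 15.1 FPKM in the library labelled sh-METTL3 and 19.96 FPKM in control. The level in control was the highest by a small margin, with count shares of 0.767 (0.732 to 0.803) for sh-METTL3 and 0.800 (0.764 to 0.837) for glucose over control. Glucose over sh-METTL3 gave 1.04, with an interval of 0.993 to 1.10 that spans 1.

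Hsf1, the regulator, had the lowest control level of the 10: it stood at 8.01 FPKM in the glucose library, 5.95 FPKM in the library labelled sh-METTL3 and 9.34 FPKM in control. Its count share was 0.648 of control in the library labelled sh-METTL3 (0.621 to 0.677), 0.865 of control with glucose (0.832 to 0.900) and 1.33 for glucose over sh-METTL3 (1.28 to 1.39). With log2 ratios of -0.68 and -0.35 against control, Hsf1 lay inside the range of the middle 90% of tested genes. Hsf1 is long, in length class 9 of 10, and relative to genes of like length these ratios were -1.01, past the 2-fold line, and -0.60. HSF1 activity is set mainly by the state of the protein, which RNA levels do not measure.

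Summed over the 10 genes, heat shock messages took 0.712%, 0.677% and 1.58% of all counts in the glucose, sh-METTL3 and control libraries. Most of that mass came from the constitutive genes Hspa8 and Hsp90ab1.

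**Figure D2:**
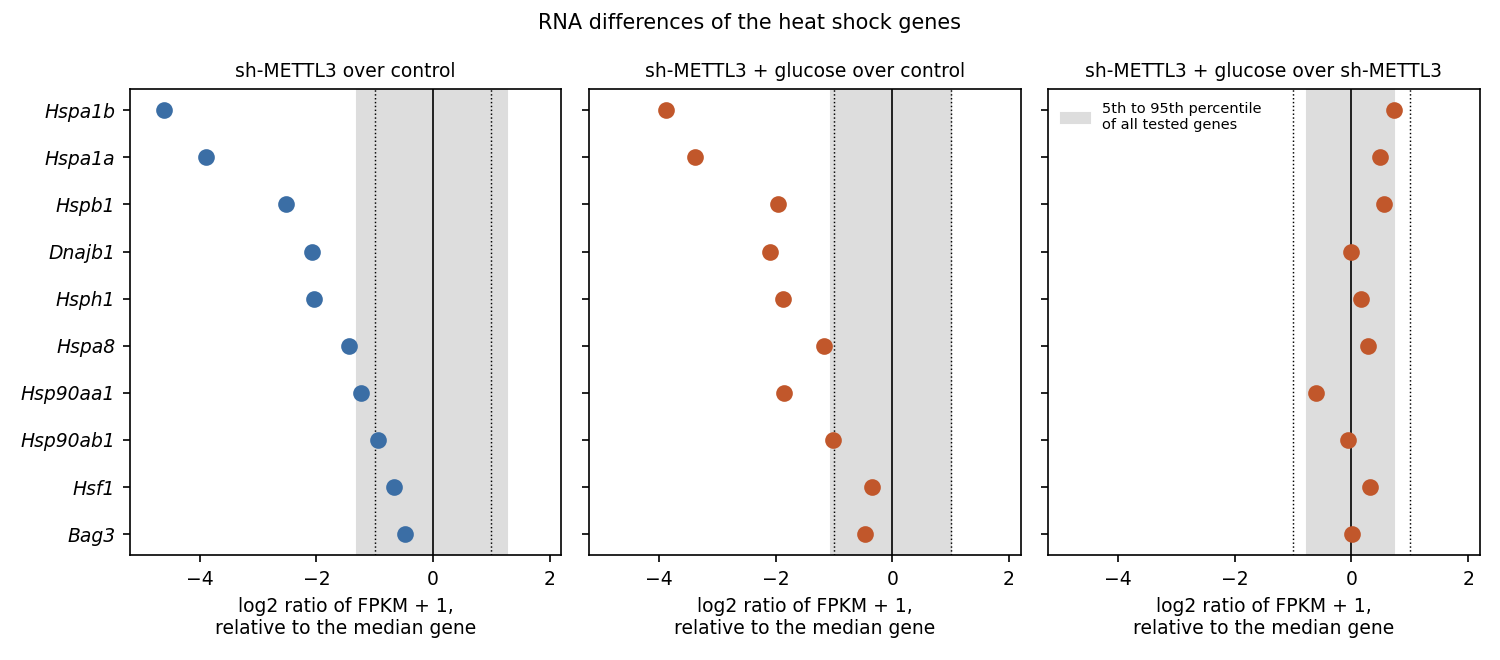
Log2 ratio of FPKM + 1 relative to the median tested gene for each heat shock gene, 1 point per gene, in sh-METTL3 over control, sh-METTL3 with glucose over control and sh-METTL3 with glucose over sh-METTL3. The grey band holds the 5th to 95th percentile of the 11591 tested genes and dotted lines mark 2-fold; against control the points reach from -4.61 (Hspa1b) to about -0.35 (Hsf1, glucose), whereas between glucose and sh-METTL3 all 10 lie between -0.61 (Hsp90aa1) and 0.72 (Hspa1b).

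Genes with the most similar pattern were sought for the 8 members past 2-fold in any comparison, among 1957 genes of at least 20 FPKM on average, by the Euclidean distance over the log2 ratios against control; with 3 libraries such likeness is a description. Nearest to Hspb1 were Hsp25-ps1 (distance 0.10), Rps24-ps3, Erdr1, the endoplasmic reticulum chaperone gene Hspa5 (0.38) and Epb41l4aos. Nearest to Hsp90aa1 was Gm12346, a transcribed processed pseudogene (distance 0.0082), then Leng8, Gm10076, Gm10736 and Rsrp1. Gm12346 was taken as a copy of Hsp90aa1, with 8.46%, 8.545% and 8.69% of its counts in the glucose, sh-METTL3 and control libraries. Reads may be shared between those 2 genes. Dnajb1 and Hsph1 were among the nearest of each other (0.21), and both had mt-Rnr2, Snhg1 and Per1 among their 5; Gas5 was near Hsph1 and Erdr1 near Dnajb1. Nearest to Hspa1a were the 7SL RNA genes Rn7s2 (0.45) and Rn7s1, then Lars2, Hspa1b and mt-Rnr1. Nearest to Hspa1b were Lars2 (0.51), Rn7sk, CT010467, Rn7s1 and Rn7s2. Hspa1a, with a mean under 20 FPKM, was not among the genes searched. Apart from Hspa1b and from Lars2, a protein-coding gene, the genes named as nearest to either copy were structural RNAs, whose part in the values of the pair was not tested. Hspa8 was nearest to Gm15772, Rpl10a, Rpl36, Gm5905 and Rpl35a, and Hsp90ab1 to Cox8a, Cox7c, Gm45660, Eif4a2 and Atp6v0b, all within a distance of 0.06.

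The other chaperone genes, read from 8 lists, ranged from lists near the median gene to a list with most genes lower. The wider HSP70 and HSP40 system was near the median gene: of 23 tested genes 2 were higher and 1 lower in the library labelled sh-METTL3 than in control, with a median of -0.10, and 1 was higher and 1 lower in the glucose library, with a median of -0.19. The higher genes were Bag2, an HSP70 co-chaperone that inhibits the ubiquitin ligase CHIP, at 10.4, 10.99 and 4.00 FPKM in the glucose, sh-METTL3 and control libraries, and Bag5 at 6.42, 7.69 and 2.85 FPKM. Dnaja4 was the lower one in the library labelled sh-METTL3, at 0.462 FPKM against 1.78 FPKM in control, and Dnaja1, another HSP40, was lower with glucose, at 11.4 FPKM against 22.6 FPKM in control. Of 17 genes listed with the HSP90 co-chaperones, 1 was lower in the library labelled sh-METTL3 (Fkbp4, 61.6 FPKM against 123.6 FPKM in control, median -0.43). In the glucose library 2 were lower (median -0.28), Ahsa2 and Hsp90b1, the latter an HSP90 gene itself rather than a co-chaperone gene. Of 5 tested small heat shock proteins Hspb8, the partner of BAG3, was higher at 7.24 FPKM in the library labelled sh-METTL3 against 2.81 FPKM in control, and Hspb2 was lower at 6.80 FPKM against 14.5 FPKM.

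The chaperonin TRiC and its partner prefoldin, which fold actin and tubulin, had all 14 genes below 0 in both comparisons with control, but only 1 past 2-fold in each: Pfdn6 in the library labelled sh-METTL3 (16.4 FPKM against 36.6 FPKM in control) and Vbp1 in the glucose library (6.89 FPKM against 23.7 FPKM in control). Their medians were -0.65 and -0.57. Expressed genes in general also lay below 0 in these comparisons. The medians were -0.23 and -0.22 for all genes of at least 10 FPKM on average, and -0.86 and -0.71 for those of at least 100 FPKM. Among 11 mitochondrial chaperones 4 were lower in the library labelled sh-METTL3 (Hspe1, Hspd1, Hspa9 and Lonp1; median -0.35) and 2 of these, Hspe1 and Hspd1, in the glucose library (median -0.02). Hspe1, the HSP10 gene, stood at 38.3, 28.1 and 97.2 FPKM and Hspd1, the HSP60 gene, at 92.6, 76.1 and 171 FPKM in the glucose, sh-METTL3 and control libraries.

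Endoplasmic reticulum chaperones had the lowest median of the 8 lists, with 8 of 14 genes lower in the library labelled sh-METTL3 (median -1.05) and 6 of 14 in the glucose library (median -0.83). Hspa5 stood at 186 FPKM in the glucose library, 119.5 FPKM in the library labelled sh-METTL3 and 779.8 FPKM in control, Calr at 297, 212 and 786 FPKM, and Manf at 22.6, 19.6 and 60.4 FPKM. Of 21 genes listed as other targets and regulators of HSF1, 6 were lower in the library labelled sh-METTL3 (median -0.37), led by Gadd45b at 28.5 FPKM against 197 FPKM in control, Ubb and Cacybp. In the glucose library 5 were lower (median -0.21) and 1 was higher, Chac1, a glutathione-degrading enzyme, at 30.2, 8.60 and 7.19 FPKM in the glucose, sh-METTL3 and control libraries. It was also higher in glucose over sh-METTL3. Whether HSF1 acts on Chac1 or on the other genes of that list was not tested. Of 11 genes of the m6A machinery 1, Ythdc2, was higher in the library labelled sh-METTL3 than in control (median 0.13) and 0 were past 2-fold in the glucose library (median -0.09). In glucose over sh-METTL3 the medians of the 8 lists ran from -0.19 to 0.22, and the reader Ythdf3 was the only one of the machinery past 2-fold, at 8.94 FPKM with glucose against 18.8 FPKM in the library labelled sh-METTL3. A few genes, among them Hsp90b1, stand in more than 1 list, and Dnaja4, Ahsa2, Lonp1 and Ythdc2 were picked out after their values were seen, to name every gene behind a small count.

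**Figure D3:**
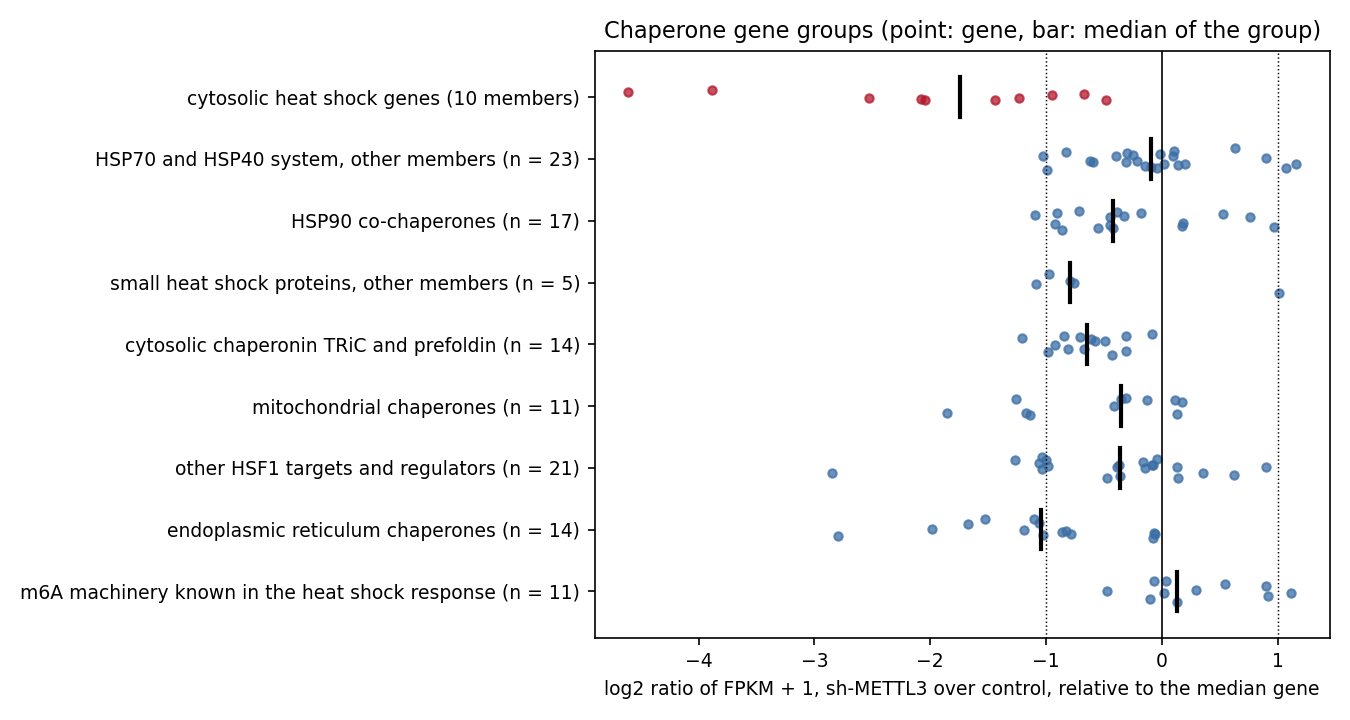
Log2 ratio of FPKM + 1 in the library labelled sh-METTL3 over control, relative to the median tested gene, for the 10 cytosolic heat shock genes (top, red) and 8 lists of related genes (blue); each point is a gene, each black bar the median of its list, and n counts tested genes. The median of the 10 is -1.74, that of the endoplasmic reticulum chaperones -1.05 and that of the remaining HSP70 and HSP40 genes -0.10.

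The messages of the heat shock genes carried m6A peaks in all 3 conditions, and the list of the glucose condition held the most. In the authors' deposited peak lists, 26 peaks lay in the 10 genes in the glucose condition, and 16 each under the sh-METTL3 label and in control. Genes with at least 1 peak numbered 10, 9 and 8 of 10, against 78.6%, 72.2% and 70.6% of the tested genes in the same lists, which themselves held 27480, 24626 and 22498 peaks over all genes. Among genes of at least 100 FPKM the shares were 67.3%, 49.2% and 52.8%. At an adjusted p under 0.05 the member peaks numbered 24, 13 and 14, in 10, 8 and 8 genes, against 75.3%, 69.4% and 67.8% of the tested genes. A longer list means more was called in that condition, so a peak present in a single list is not by itself a difference in m6A.

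Of the 26 member peaks of the glucose list 13 overlapped peaks in both other lists, of the 16 of the sh-METTL3 list 15 did, and of the 16 of the control list 14 did, counting an overlap of at least 1 bp on the same strand. Over all peaks of these lists the shares were 62.8%, 71.1% and 75.5%. Member peaks found in 1 list alone numbered 11, 0 and 0 in the glucose, sh-METTL3 and control lists, against 21.8%, 9.03% and 8.51% of all peaks. The choice of overlap set this count: with at least 50% of both peaks required, 16, 5 and 3 member peaks were in 1 list alone, against 43.9%, 34.2% and 31.5% of all peaks. Of the 11 peaks at 1 bp, 7 were annotated to a 5' UTR, in Hspb1, Hsph1, Hspa8, Hsp90aa1, Hsf1 and Hspa1b, and 10 of the 11 had an adjusted p under 0.05. The authors' ratios of pulled-down to input RNA for these 7 were mostly low, against a median of 4.81 over all peaks of the glucose list. They were 1.42 in Hspb1, 1.94 in Hsph1, 1.72 in Hsf1, 1.46 in Hspa1b, 1.15 and 6.47 in Hsp90aa1 and 6.55 in Hspa8. Of all peaks in the glucose list alone, 21.7% were in a 5' UTR. Over all peaks of the glucose list, 17.4% were in a 5' UTR and 50.1% in a 3' UTR; for the members it was 8 and 11 of 26. In the sh-METTL3 list 2 of 16 were in a 5' UTR and 9 in a 3' UTR, and in control 2 and 8 of 16. The label of overlapping peaks can differ between lists, which limits this comparison. The peak at the start of Dnajb1 was labelled 3' UTR in the glucose list and 5' UTR in the other lists. That of Hsp90ab1 was labelled 3' UTR in the glucose list and exonic in the others.

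**Figure D4:**
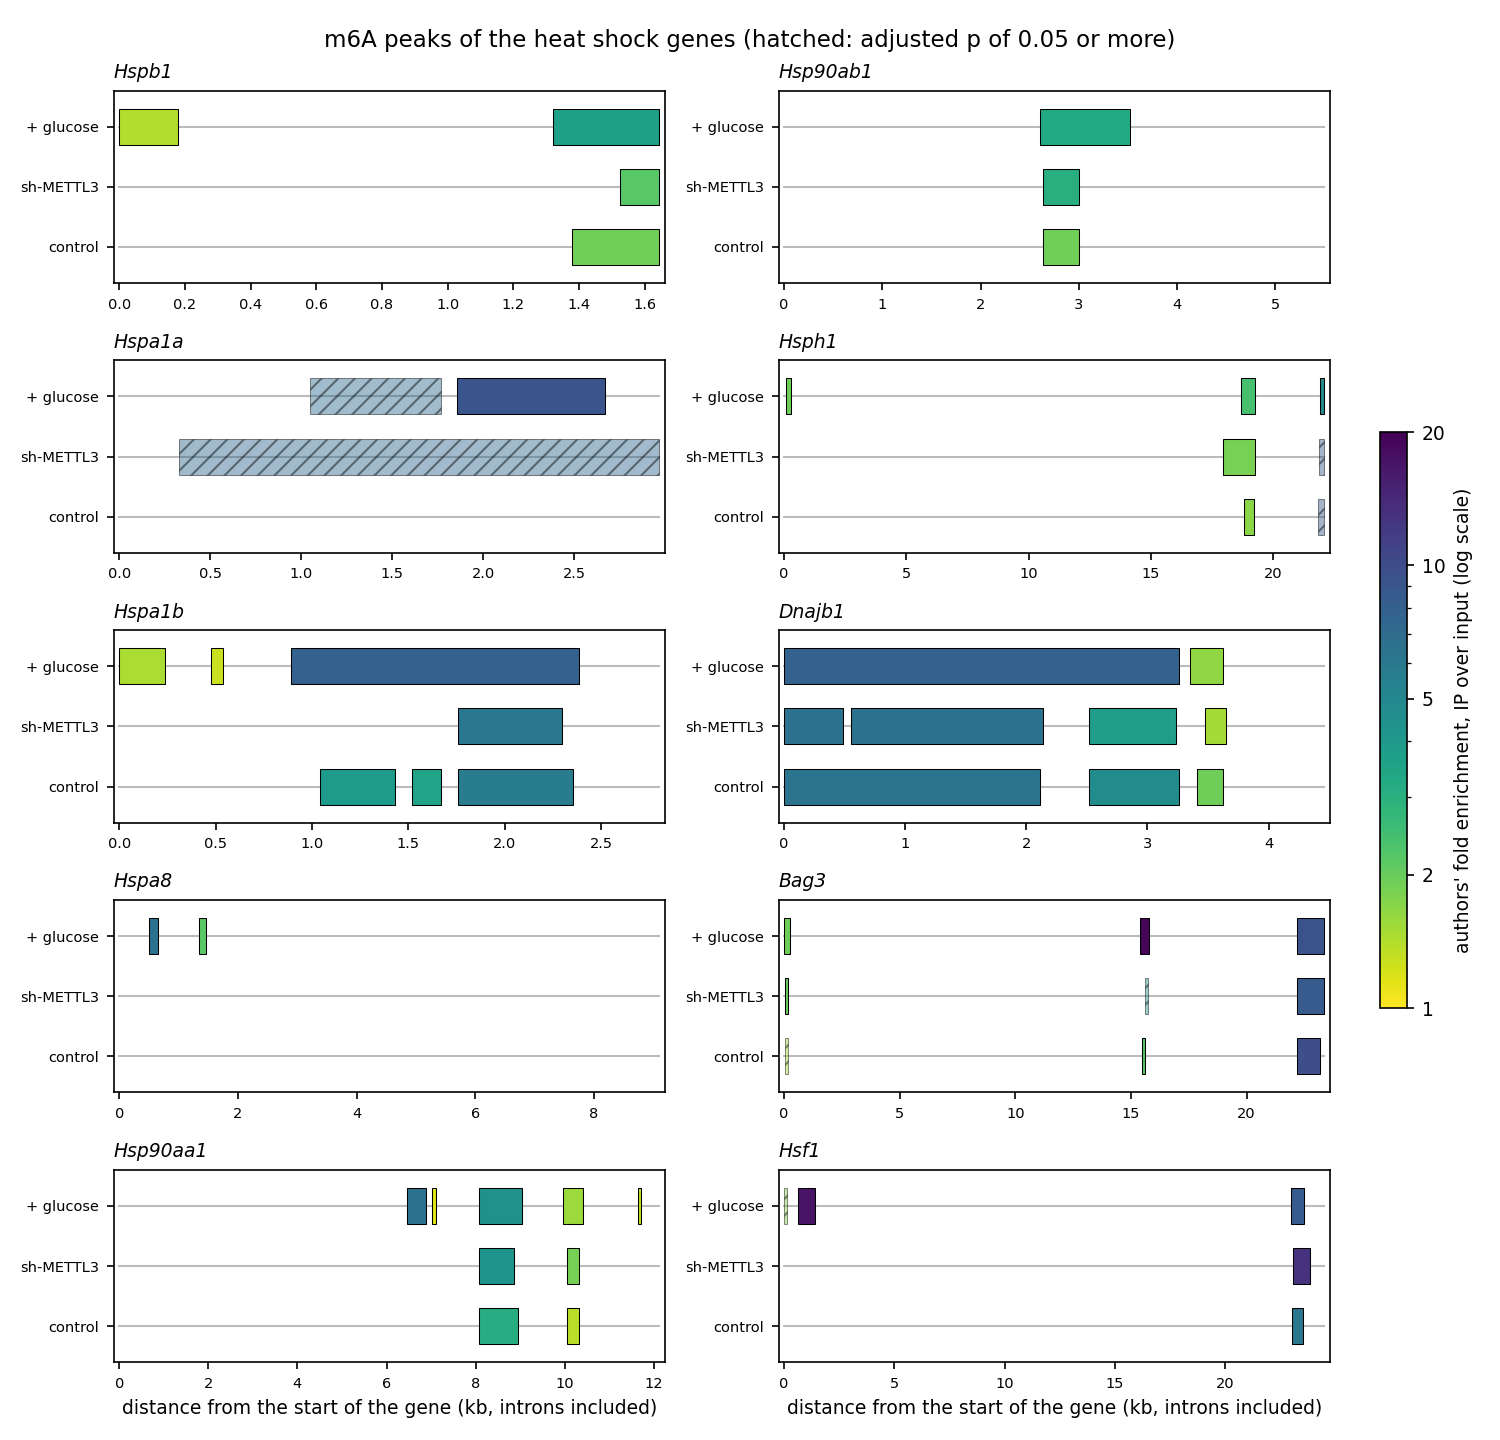
m6A peaks of each heat shock gene along its span (distance from the gene start in kb, introns included), in rows for sh-METTL3 with glucose, sh-METTL3 and control from top to bottom. Boxes are peaks of the authors' lists, coloured by the authors' fold enrichment of pulled-down over input RNA on a log scale and hatched where the adjusted p is 0.05 or more; the 3' ends of Bag3 and Hsf1 and the body of Dnajb1 carry boxes in all 3 rows, and Hspa8 in the glucose row alone.

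Fold enrichment here is the authors' own value for a peak, the ratio of pulled-down to input RNA, and it is used only to place a peak within its list. The median over the members' peaks was 3.44, 4.20 and 3.31 in the glucose, sh-METTL3 and control lists, against 4.81, 5.51 and 5.99 over all peaks of those lists. The highest member value was 19.1 in the glucose list (an intronic peak of Bag3), 13.0 in the sh-METTL3 list (the 3' UTR of Hsf1) and 9.84 in the control list (the 3' UTR of Bag3). That intronic peak overlaps another locus, 2610306O10Rik, on the same strand.

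Bag3 carried a peak annotated to its 3' UTR on chromosome 7 in each list. It spanned 128545820 to 128546951 in the glucose list with a fold enrichment of 9.33, 128545790 to 128546951 in the sh-METTL3 list with 8.56, and 128545790 to 128546802 in the control list with 9.84, and it lay above 71.4% of the peaks of the sh-METTL3 list and above 73.6% of those of control. A short peak in the 5' UTR stood in each list, at 1.93, 2.02 and 1.49, the last with an adjusted p of 0.105. An intronic peak had 19.1 in the glucose list, 4.16 in the sh-METTL3 list (adjusted p 0.187) and 2.14 in control. That intronic stretch overlaps 2610306O10Rik on the same strand, a locus with 27, 68 and 33 counts, so its signal cannot be assigned to Bag3.

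Hsf1 carried a peak near the end of its transcript on chromosome 15 in each list, with fold enrichments of 8.60 (76500386 to 76500985) in the glucose list, 13.0 (76500475 to 76501254) in the sh-METTL3 list and 6.11 (76500445 to 76500955) in control. It is annotated to a 3' UTR. The glucose list held a further intronic peak with 17.1 and an adjusted p of 0.000363, and a 5' UTR peak whose adjusted p was 0.185.

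Dnajb1 was covered by peaks over much of its 4461 bases. In the glucose list a peak with a fold enrichment of 7.87 ran from the gene start at 83608193 on chromosome 8 over 3264 bases, introns included. In the sh-METTL3 list the same stretch was split into peaks with 6.46, 6.52 and 3.78, and in the control list into peaks with 6.28 and 4.70. A last short peak in the 3' UTR had 1.64, 1.49 and 1.94 in the glucose, sh-METTL3 and control lists.

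Hspa1b had a peak annotated to its 3' UTR in each list, with 7.99 over 1492 bases in the glucose list, 6.08 over 537 bases in the sh-METTL3 list and 5.83 over 597 bases in control. Control held 2 more exonic peaks, with 3.53 and 3.92, and both lie inside the long peak of the glucose list. A peak in the 5' UTR, with a fold enrichment of 1.46 and an adjusted p of 6.76e-05, was in the glucose list alone. Hspa1a had peaks with 9.05 (adjusted p 0.0479) and 7.04 (adjusted p 0.412) in the glucose list, 7.28 (adjusted p 0.348) in the sh-METTL3 list and 0 in control, the condition with the most Hspa1a RNA. Reads of the pair can be assigned to either copy, and peaks of either copy are uncertain for that reason.

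Hspb1 had a peak at its very 3' end in each list, with 3.63, 2.19 and 1.92 in the glucose, sh-METTL3 and control lists. Its 5' UTR peak, with 1.42 and an adjusted p of 2.51e-13, was in the glucose list alone. Hsph1 had a 3' UTR peak with 2.41, 1.85 and 1.68, and a second 3' peak with 4.69 in the glucose list, 8.32 in the sh-METTL3 list and 8.61 in control, of which only the glucose one had an adjusted p under 0.05 (0.00575).

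Hspa8 was the member with peaks in the glucose list alone, a 150-base peak in the 5' UTR with a fold enrichment of 6.55 and a 120-base exonic peak with 2.15. Hsp90aa1 had its main peak within coding exons on chromosome 12, with 4.46 (110693685 to 110694653), 4.24 (110693863 to 110694653) and 3.09 (110693774 to 110694653) in the glucose, sh-METTL3 and control lists, and a second exonic peak with 1.57, 1.87 and 1.38. Its other 3 peaks were in the glucose list alone. Hsp90ab1 had 1 peak per list, on chromosome 17 from 45570276 to 45570636 in both the sh-METTL3 list (3.03) and control (1.92) and from 45569755 to 45570666 in the glucose list (3.25).

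The authors' deposited tables of differential peaks hold peaks with a p under 0.05, from a test that the sources used here do not name. In glucose against control, the authors' deposited table held 8 higher peaks in 6 of the members and 1 lower peak at an adjusted p under 0.05; of all 9313 tested genes with a peak in either list, 28.1% had a higher one and 24.3% a lower one. By log2 fold change in the authors' deposited table, the higher peaks were in Hsp90ab1 (0.73) and in the 5' UTR (0.73) and 3' UTR (0.55) of Hspb1. Others were in the coding exons of Hsp90aa1 (0.48 and 0.22), the 3' UTR of Hsph1 (0.31) and that of Hsf1 (0.29, adjusted p 0.0437). The remaining one was in the intron of Bag3 (2.88, adjusted p 0.0120), in the stretch that overlaps 2610306O10Rik. Bag3 counts among the 6 members through that peak alone, whose signal cannot be assigned to it. The lower one in the authors' deposited table was the 3' UTR peak of Bag3 (-0.38, adjusted p 1.95e-06).

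For the condition labelled sh-METTL3 against control, the authors' deposited table held 1 member peak at an adjusted p under 0.05. It was in Hsp90ab1 and was higher, with a log2 fold change of 0.64 (adjusted p 1e-268). Of the 9 members with a peak in either list, 1 thus had a higher peak and 0 a lower one, against 14.2% and 4.8% of 8751 genes. So small a count does not set the members apart from other genes, and a peak absent from that table is not shown to be equal. In glucose against sh-METTL3, with the sign of the authors' deposited table turned to that order, a short 3' UTR peak of Hsp90aa1 (1.04, adjusted p 6.46e-05) and the 3' UTR peak of Hsf1 (0.43, adjusted p 0.00138) were higher and the 3' UTR peak of Bag3 was lower (-0.40, adjusted p 8.71e-07), against 13.4% and 15.8% of 9320 genes. For Hsf1 and Bag3 that direction is opposite to the order of the fold enrichments in the authors' deposited peak lists, 8.60 and 13.0 for Hsf1 and 9.33 and 8.56 for Bag3 in the glucose and sh-METTL3 lists. Over all such peaks found in both lists, 87.9% had the same sign in the authors' deposited tables. The genes with the lowest RNA against control, Hspa1a and Hspa1b, had no peak in the authors' deposited differential tables in any of the 3 comparisons. Their RNA counts were as low as 186 and 543 in the library labelled sh-METTL3, so this absence does not show that their m6A was equal.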

How the data were processed

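RNA and m6A were measured in MPC5 cells. Per the labels' protocols, poly(A) RNA was fragmented, pulled down with an m6A antibody or kept as input, and made into libraries that mark strand. Per the submitters' processing notes, the tools were HOMER 4.10, edgeR 4.1, StringTie 2.1.2, HISAT2 2.0.4 and fastp 0.19.4, with no roles, and the build was GRCh38, although the cells are mouse. The deposited gene coordinates overlapped RefSeq genes of GRCm38.p6 for 10 of 10 members, and 5 shared an end. No source used here names the program that called the peaks.

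Per the file headers, the authors deposited FPKM and whole-number counts per gene, 1 column of each per condition. No source used here says whether these columns are libraries of their own or input samples combined. The authors deposited peak lists with fold enrichment, a ratio of IP to input RNA, and with log10 p and log10 adjusted p, used as a score. Their differential tables, as deposited, give a log2 fold change, a p-value and an adjusted p. The deposited lists number peak starts from 0, and 1 was added. The table of glucose and sh-METTL3 was deposited as sh-METTL3 over glucose, and its sign was turned.

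Log2 ratios took FPKM + 1 over genes whose mean FPKM reached 1. Ratios of count shares carry exact binomial (Clopper-Pearson) 95% intervals. Gene length was inferred from counts and FPKM. With 1 library per condition no test of RNA was run; the procedure was tested on simulated data. Python 3.11.15, pandas 2.3.3, NumPy 2.4.6, SciPy 1.17.1 and Matplotlib 3.10.9 were used. Alternatives changed the centring, normalization, pseudocount, filter, peak threshold and overlap. Named genes are the 10 members, Mettl3, up to 3 genes per list, direction and comparison past 2-fold with a mean of at least 5 FPKM, and the 5 genes nearest to each member past 2-fold; Nphs1 and Wt1 come from the marker lists. The members and lists were chosen with earlier results of these data known.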

Additional observations from a re-analysis of the deposited data

How the results depend on the processing

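With 1 RNA library per condition, no value here separates a condition from a culture, and the fewest counts behind a member were 186, for Hspa1a in the library labelled sh-METTL3. No paired analysis was possible because the RNA table and the peak lists hold 1 column or list per condition, with no replicate number. The planned search for GGAC in the members' peaks was not run, since no genome was used here. Quantile normalization, centring by gene length, protein-coding genes alone and the sum of Hspb1 with its pseudogene were chosen after seeing the data.

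Of 150 alternative values of the 30 log2 ratios of members, 148 kept their sign, the exceptions being 1 value each of Dnajb1 and Bag3 in glucose over sh-METTL3, and all 100 of those against control stayed below 0. The members at least 2-fold lower numbered 5 to 8 for sh-METTL3 over control and 6 to 8 for glucose over control, with the fewest under quantile normalization, and 0 for glucose over sh-METTL3 under every alternative.

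Counts over all genes moved by more than 1.5 times as follows, and the cause was not tested except that a stricter filter or fewer gene types test fewer genes. Without subtraction of the median, glucose over control had 956 higher and 426 lower genes. Size factors gave 1823 higher genes for sh-METTL3 over control, 1397 higher for glucose over control, and 538 higher and 512 lower for glucose over sh-METTL3. A pseudocount of 0.1 gave 1742, 1290, and 505 higher with 487 lower for the same results. A filter at 5 FPKM gave 679 higher and 648 lower for sh-METTL3 over control, 293 lower for glucose over control, and 158 higher and 139 lower for glucose over sh-METTL3. Centring by length gave 722 lower for sh-METTL3 over control and 418 lower for glucose over control, and protein-coding genes alone gave 375 lower for glucose over control.

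At a minimum fold enrichment of 4 with adjusted p under 0.001, peaks numbered 9, 6 and 5 in 6, 5 and 4 member genes in the glucose, sh-METTL3 and control lists, against 51.9%, 49.9% and 48.3% of the tested genes. With an overlap of at least 50% of both peaks, 6, 6 and 8 member peaks of these lists were shared by all 3, against 32.9%, 37.6% and 41.0% of all peaks. Differential peaks at an adjusted p under 0.01 stayed within 1.5 times of their main number.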
